A study of Arabidopsis thaliana with 12 samples.

Results

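A module of 50 genes had higher transcript signals in gibberellin-treated than in water-treated Arabidopsis thaliana seeds at 3 h, 6 h and 9 h alike. The 50 genes were chosen from 13513 probe sets that name exactly 1 gene, among 22746 probe sets on the array besides controls. D3, D6 and D9 denote the mean log2 signal in gibberellin minus that in water at 3 h, 6 h and 9 h. A member had D3, D6 and D9 all at 0.7 or more. Both of its gibberellin arrays lay above both of its water arrays at every time, and its mean gibberellin signal was 50 or more at every time. In all, 58 probe sets met these conditions, 0.429% of the 13513. Of these, 8 belong to gene families or pairs that the rule leaves out by name (EXPA8, EXPA15, XTH19, scpl25, TUB7, CP1, ASPGB1 and SAG29). With the sign turned and the minimum of 50 set on the mean water signals, 28 probe sets met the conditions as lowered genes, with no name left out.

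Gibberellin is the hormone that drives germination. It binds the GID1 receptors, and the bound receptor leads the DELLA repressors to destruction through an F-box protein, SLY1. In seeds it is known for loosening cell walls in the embryo axis and its coverings, for releasing stored reserves and for opposing abscisic acid, which keeps seeds dormant.

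The seeds were of the Ler background and from 1 stock, which both treatments share. The labels do not give the genotype of that stock beyond its background, the form of gibberellin or any pretreatment. Seeds received water for 3, 6 or 9 h, or 5 µM gibberellin for the same times. Each of the 6 groups has 2 one-colour arrays, lettered A and B, and the labels do not say whether they came from separate batches of seeds. Signals are from whole seeds, so a change in the share of a tissue and a change of RNA per cell cannot be told apart. None of the 10 seed and 2 endosperm marker genes listed for a check of the tissue label has a probe set that names it alone. Many probe sets name no gene in the annotation used here, so these genes may still be on the array. The pollen gene AT1G29140 and the root hair gene EXPA7 were below the brightness filter, with highest signals of 13.5 and 14.0. The green-tissue gene RCA, rubisco activase, had signals between 133 and 485.

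The arrays had a low or a high signal ceiling, the largest signal anywhere on the array. It was 3308 to 3787 on 4 of them, the A arrays of 3 h and 6 h in both treatments, and 6511 to 9143 on the remaining 8. No member came above 61.1% of the highest signal of any array. Over the tested probe sets the log2 signals of the 2 arrays of a group correlated at between 0.913 and 0.935.

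The D values chose the genes, so they are given as a description with no test. The median D3 of the 50 members was 1.04, a 2.05-fold difference, and single values ran from 0.73 to 3.06. At 6 h the median was 1.50 with a range of 0.85 to 4.50, and at 9 h it was 1.54 with a range of 0.81 to 5.91. Over all 15766 probe sets bright enough to be tested the medians were -0.02, -0.01 and -0.00. A difference of 1 or more on the log2 scale, which is a doubling, was present in 30 members at 3 h, 43 at 6 h and 42 at 9 h. It was present at all 3 times in 22. Of the single-gene probe sets that passed the brightness filter, 6.02% had a D3 of 0.7 or more, 9.26% such a D6 and 13.1% such a D9.

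**Figure D1:**
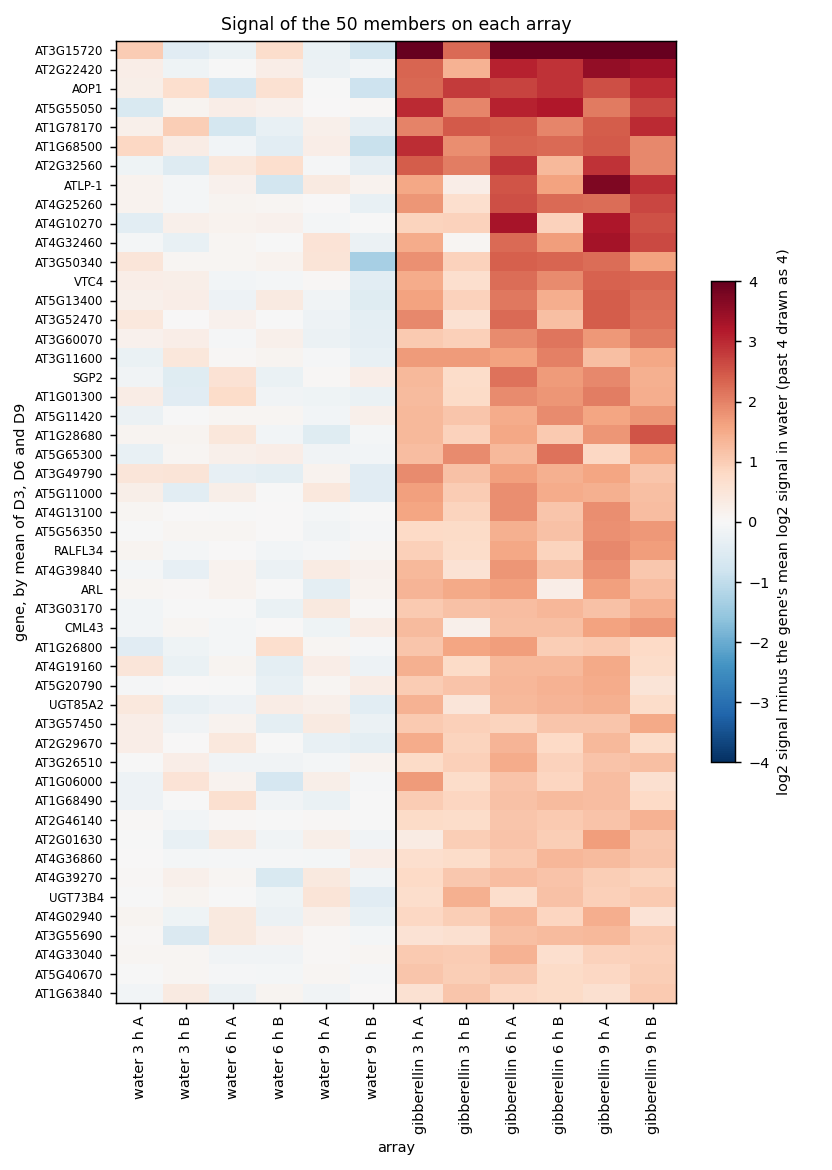
Log2 signal of each of the 50 members (rows, ordered by the mean of D3, D6 and D9) on each of the 12 arrays (columns), as the difference from that gene's mean log2 signal over the 6 water arrays. Differences past 4 are drawn as 4. The 6 gibberellin columns are mostly red against paler water columns, and AT3G15720 in the first row is the darkest. Some gibberellin cells are as pale as water, as for CML43 and ATLP-1 on the 3 h B array.

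Cell-wall genes include the member with the highest D values. AT3G15720, a pectin lyase-like gene of a family that cuts pectin, had water signals of 31.3 and 11.3 at 3 h (A and B arrays), 12.7 and 25.1 at 6 h, and 12.7 and 9.14 at 9 h. Its gibberellin signals were 330 and 74.4 at 3 h, 415 and 392 at 6 h, and 611 and 685 at 9 h. All water signals were at 31.3 or lower and all gibberellin signals at 74.4 or higher, and the gibberellin arrays of 3 h differed most from each other. D was 3.06, 4.50 and 5.91. The mean water signal was 18.9 at 6 h and 10.9 at 9 h, so the later sizes rest on water values near the filter signal of 16.

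A pair of DUF642 genes, which code for proteins of the cell wall, were members. AT5G11420 had 647 and 744 at 3 h, 808 and 809 at 6 h, and 699 and 872 at 9 h in water. With gibberellin it reached 1872 and 1630, 2138 and 2789, and 2265 and 2606. Its D values lay close together at 1.33, 1.59 and 1.64. AT4G32460 had 100 and 85.8 in water at 3 h, 112 and 104 at 6 h, and 153 and 89.2 at 9 h. With gibberellin it had 298 and 112, 510 and 335, and 1064 and 661. Its 3 h B array in gibberellin (112) stood just above the water arrays of that time, and by 9 h both arrays stood several-fold above them (D of 0.98, 1.94 and 2.84).

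Genes of signalling form a second group with known symbols. RALFL34 codes for a RALF peptide, one of a family of small secreted signals read by receptor kinases at the cell surface. Its water signals stayed between 245 and 286 on all 6 arrays. In gibberellin they were 506 and 437 at 3 h, 760 and 486 at 6 h, and 996 and 843 at 9 h. The groups did not overlap at any time, and D was 0.83, 1.26 and 1.78. Of 11 probe sets named for RALF genes, 6 passed the brightness filter and RALFL34 alone met the rule. D3 was 0.7 or more in 3 of the 6, and D6 and D9 in 2 each. Of all single-gene probe sets that passed the filter, 6.02%, 9.26% and 13.1% had such a D3, D6 and D9. The other 10 never exceeded a signal of 38.1, below the minimum of 50 in the rule.

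CML43 codes for a calmodulin-like calcium sensor. It had 128 and 61.1 in gibberellin at 3 h against 48.9 and 55.7 in water, so its B arrays hardly differed at that time. At 9 h it had 162 and 176 against 47.0 and 65.4, and D was 0.76, 1.23 and 1.61. ARL, the ARGOS-like gene known to promote organ growth through cell expansion, had 304 and 341 at 3 h against 125 and 122. At 6 h its gibberellin arrays were 367 and 144 against 131 and 118 in water, the widest gap within a group for this gene. D6 was 1.48 from the A arrays and 0.29 from the B arrays. At 9 h they were 368 and 278 against 91.2 and 130. D was 1.38, 0.89 and 1.55. SGP2, named as a small GTP-binding protein, had D of 1.33, 1.77 and 1.53, from a mean water signal of 21.4 ± 3.56 and a gibberellin signal of 54.5 ± 15.1 at 3 h (SD, n = 2).

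Among the genes of metabolism, VTC4 codes for the phosphatase that makes L-galactose on the way to ascorbate. Its water signals were 138 and 135 at 3 h, 106 and 108 at 6 h, and 118 and 85.6 at 9 h. In gibberellin they were 321 and 182, 537 and 423, and 577 and 576. The treatments stood apart at each time, more widely at 6 and 9 h (D of 0.82, 2.15 and 2.52).

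AOP1 belongs to a cluster of genes for 2-oxoglutarate-dependent dioxygenases whose best known members act in glucosinolate synthesis. It had 23.2 and 32.0 in water at 3 h, 12.6 and 30.4 at 6 h, and 19.8 and 11.1 at 9 h. In gibberellin it had 97.4 and 138, 131 and 148, and 118 and 158. The gibberellin level was thus much the same at the 3 times, while D went from 2.09 to 2.83 and 3.20. AOP3, the other AOP gene with a probe set that names it alone, had D of -1.35, -1.89 and -2.74, the opposite sign at every time. In gibberellin AOP3 fell between 3 h and 9 h, with a log2 change of -1.48 (limma, adjusted p = 0.0147).

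UGT85A2 and UGT73B4 code for enzymes that attach sugars to small molecules. UGT85A2 had D of 0.88, 1.29 and 1.18 and UGT73B4 of 1.02, 1.02 and 0.97. On the A arrays at 9 h UGT73B4 differed by 0.435 and on the B arrays by 1.50. Of 37 probe sets with a UDP-glycosyltransferase name that passed the filter, these 2 met the rule. Among all 13513 single-gene probe sets, bright or not, 0.429% met it before names were left out. In the 37, 4 had a D3, 9 a D6 and 8 a D9 of 0.7 or more. Of all single-gene probe sets that passed the filter, 6.02%, 9.26% and 13.1% did. The median D of the 37 was 0.14, -0.10 and -0.02. The list was made by name, so members known by locus alone may belong to the family without being counted.

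Proteins linked to stress and protection make up the last group with known names. ATLP-1, a thaumatin-like protein of the family that also holds defence proteins, had 32.0 and 27.7 in water at 3 h, 33.1 and 17.6 at 6 h, and 37.6 and 32.2 at 9 h. In gibberellin it had 86.2 and 35.2, 168 and 89.6, and 386 and 223. The A array was the higher at each time, and the B array at 3 h was close to water (D of 0.89, 2.35 and 3.08). AT2G46140 is listed as LEA27, of the late embryogenesis abundant proteins that protect dry seeds. It had 175 and 156 in water at 3 h and 287 and 280 in gibberellin, and 177 and 169 against 379 and 445 at 9 h. The arrays of a group lay close together for this gene, and D was 0.78, 1.07 and 1.25. Of the other 4 measured genes of that name, 3 had a D9 below 0: LEA4-5 (-0.82), AtLEA4-1 (-0.62) and LEA18 (-1.10). The fourth, AT2G44060, had 0.23. At 3 h and 6 h D was -0.05 and -0.05 in LEA4-5 and 0.03 and -0.05 in AtLEA4-1. It was -0.40 and -0.33 in LEA18, and -0.30 and -0.09 in AT2G44060. This list too was made by name, so genes of the family known by locus alone may not be counted.

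**Figure D2:**
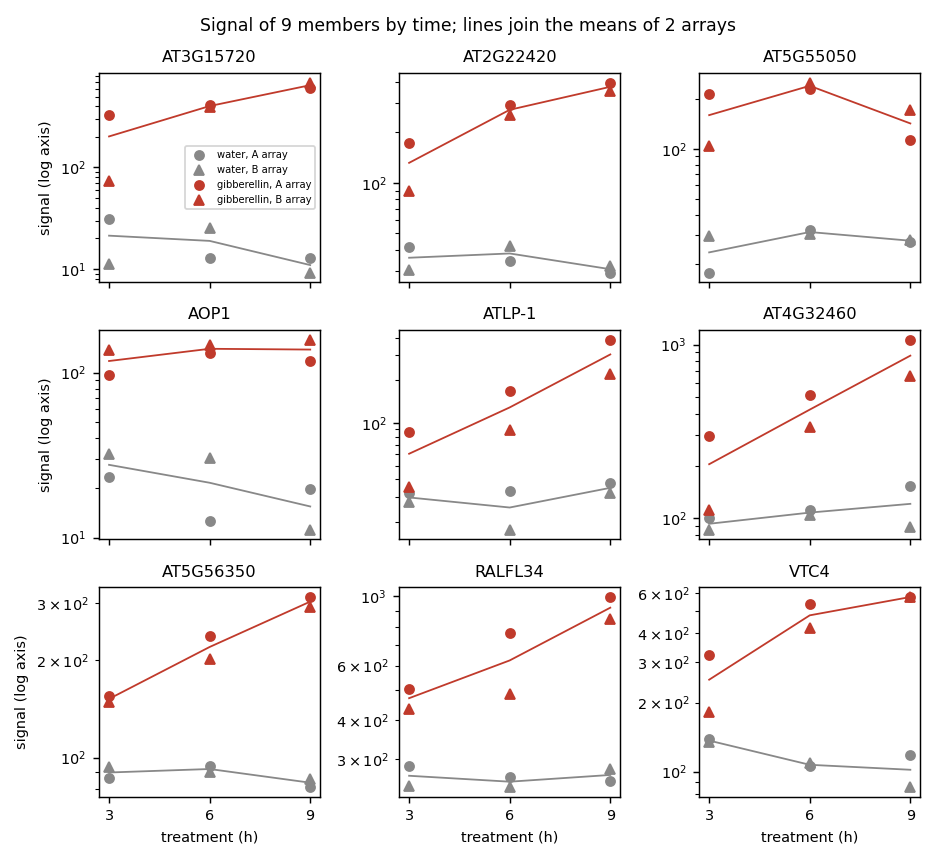
Signal (log axis, a separate scale for each gene) of 9 members after 3, 6 and 9 h in water (grey) or gibberellin (red). Circles are A arrays, triangles are B arrays and lines join the means of the 2 arrays of a group; the treatments are separate at each time, most narrowly for the B arrays of ATLP-1, AT4G32460 and VTC4 at 3 h.

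The other members are known in the annotation used here by locus alone, 41 of the 50 counting AT2G46140 and the genes of the cell wall, and no role is given to them. AT5G55050 had the second highest D3. It had 17.7 and 29.5 in water at 3 h, 32.3 and 30.4 at 6 h, and 27.5 and 28.1 at 9 h. In gibberellin it had 215 and 105, 230 and 251, and 114 and 171, so its level was highest at 6 h on both letters (D of 2.71, 2.94 and 2.33). AT2G32560 had the third highest D3, with 84.1 and 64.9 in gibberellin at 3 h against 14.0 and 11 in water. At 6 h it had 115 and 38.6 against 21.4 and 25.3, and at 9 h 118 and 60.1 against 15.4 and 12.2. Its B array was lower throughout in gibberellin, and D was 2.57, 1.52 and 2.62. A second probe set for AT2G32560 never exceeded a signal of 3.90, below the filter.

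AT2G22420 had 41.3 and 30.3 in water at 3 h, 34.1 and 41.8 at 6 h, and 29.1 and 32.1 at 9 h. In gibberellin it had 173 and 89.8, 290 and 255, and 394 and 352. The level was flat in water, and each later pair of gibberellin arrays stood above the earlier pair (D of 1.82, 2.85 and 3.61). AT4G10270 had 162 and 165 in gibberellin at 3 h against 65.4 and 101. At 6 h its gibberellin arrays were far apart, at 870 and 165, against 96.9 and 97.8 in water. At 9 h they were 827 and 511 against 83.1 and 87.0. D was 1.01, 1.96 and 2.93, and the value at 6 h was 3.17 from the A arrays and 0.75 from the B arrays.

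AT1G78170 and AT1G68500 complete the 6 members with the highest mean D. AT1G78170 had water signals of 14.8 and 25.2, 7.82 and 10.4, and 14.7 and 9.98, and gibberellin signals of 51.1 and 70.4, 67.3 and 49.3, and 68.5 and 101. AT1G68500 had 62.1 and 42.7, 32.6 and 26.2, and 41.7 and 19.0 in water, and 270 and 125, 174 and 166, and 189 and 133 in gibberellin. No water array of either gene reached its gibberellin arrays. The gibberellin mean of AT1G68500 was highest at 3 h (198 ± 103, SD, n = 2), and D was 1.84, 2.54 and 2.50. AT1G68500 and the member AT1G68490, with D of 1.03, 0.97 and 1.15, have no protein-coding gene between them on chromosome 1. They are the only 2 members that are direct neighbours. The next closest pair, AT4G02940 and AOP1 on chromosome 4, has 10 such genes between. The 49 members that matched the gene table lie 10, 7, 11, 11 and 10 on chromosomes 1 to 5, and AT3G57450 did not match.

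At the bottom of the range the members stood close to the threshold. AT1G63840 (smallest D of 0.73), AT4G36860 (0.73) and AT3G26510 (0.74) were the nearest inside. AT5G20400 (0.70, from 0.697), AT3G19360 (0.68) and AT4G30470 (0.68) met the rest of the rule and were just outside. The gap between the last member and the first gene left out is smaller than the standard error of a difference of 2 group means, 0.31 in the median member. Of the 50 members, 27 had a mean water signal under 50 at some time and 4 under 16, while 14 had 100 or more at every time. With 16 added to each signal before log2, 38 of the 50 met the rule.

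The time courses of D differed among members. D9 exceeded D3 in 38 of 50, and the median of D9 minus D3 was 0.35 against 0.00 over all tested probe sets. The standard error of such a difference was 0.44 in the median member. It was positive from both the A and the B arrays in 29 members, negative from both in 3 and mixed in 18. D went up at each step in 26 members, was highest at 6 h in 16, lowest at 6 h in 4, and went down at each step in 4. These are descriptions of the values that chose the genes.

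D9 was higher than D3 by 1 or more in 15 members. They were AT3G15720 (2.85), ATLP-1 (2.19), AT4G10270 (1.93), AT4G32460 (1.87), AT2G22420 (1.79), VTC4 (1.70), AT5G13400, AT3G52470, AT3G60070, AT1G28680, AT4G25260, AT3G50340, AT1G78170, AOP1 (1.12) and AT5G56350 (1.1). Another 5 lay between 0.5 and 1, namely RALFL34, AT1G01300, CML43, AT1G68500 and AT2G01630. AT4G25260 went from a mean of 167 ± 85.6 at 3 h to 369 ± 82.0 at 9 h in gibberellin, and from 68.8 ± 7.52 to 60.7 ± 8.97 in water (SD, n = 2). AT1G01300 had gibberellin signals of 1121 and 792 at 3 h and 1958 and 1275 at 9 h, against 578 and 339 and then 420 and 389 in water.

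In 29 members D9 and D3 differed by less than 0.5. Besides AT5G55050, AT2G32560, AT5G11420, AT2G46140, SGP2, ARL, UGT85A2 and UGT73B4 they were AT3G11600, AT5G65300, AT3G49790, AT5G11000, AT4G13100, AT4G39840, AT3G03170, AT4G19160, AT5G20790, AT3G57450, AT2G29670, AT3G26510, AT1G06000, AT1G68490, AT4G36860, AT4G39270, AT4G02940, AT3G55690, AT4G33040, AT5G40670 and AT1G63840. AT5G40670 shows this flat form with little scatter. It had 300 and 325, 295 and 292, and 325 and 297 in water, and 659 and 607, 647 and 520, and 544 and 599 in gibberellin (D of 1.02, 0.98 and 0.88). AT3G11600 had D of 1.60, 1.73 and 1.56, the highest mean D of the 29 after AT5G55050 and AT2G32560.

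AT1G26800 was the only member whose D9 was lower than its D3 by 0.5 or more. It had 94.5 and 131 in gibberellin at 3 h against 32.2 and 39.6, and 91.7 and 76.5 at 9 h against 46.6 and 42.4. Its D values were 1.64, 1.03 and 0.91. At 6 h its arrays were 140 and 87.8 against 41.8 and 70.4, and the B arrays differed by 0.32. AT5G65300 had D of 1.66, 1.52 and 1.33, with 49.6 and 78.0, 52.4 and 96.3, and 37.9 and 62.9 in gibberellin. In water it had 17.3 and 22.3, 24.5 and 25.2, and 19.2 and 19.7, below every gibberellin array.

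**Figure D3:**
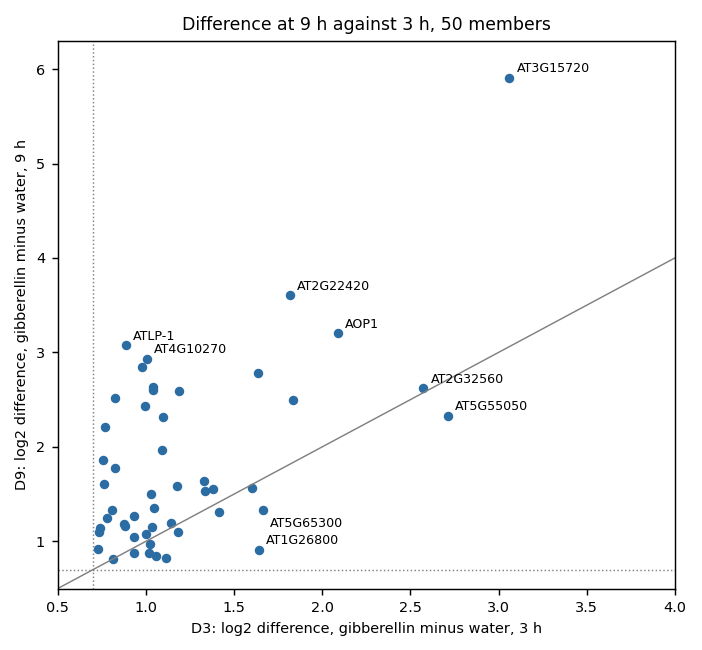
D9 (vertical) against D3 (horizontal) for the 50 members, both as log2 signal in gibberellin minus water. The solid line marks equal values and the dotted lines the threshold of 0.7; 38 points lie above the solid line, and AT3G15720 is the highest on both axes.

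The size of the difference varied with the array letter, by the medians most at 3 h. Gene by gene the letters differed most at 9 h: the median absolute difference between A and B was 0.35 at 3 h, 0.38 at 6 h and 0.46 at 9 h. The median D3 was 1.30 from the A arrays and 0.90 from the B arrays, and D3 was higher from the A arrays in 32 of 50 members. For all tested probe sets these medians were -0.01 and -0.02. At 6 h the medians of the members were 1.52 and 1.45, and at 9 h 1.64 and 1.57. Within gibberellin the A array was above the B array in 34 members at 3 h, 36 at 6 h and 31 at 9 h. Of all tested probe sets this held for 56.5%, 49.9% and 48.2%. The A array at 3 h has the low signal ceiling and the B array the high one, in both treatments, so these are also the values within each ceiling. From the B arrays alone, D3 was 0.13 in CML43, 0.19 in AT1G06000, 0.34 in ATLP-1, 0.39 in AT4G32460 and 0.43 in VTC4. With most single arrays left out, some of the 50 members no longer met the rule. With the gibberellin 3 h B array left out, 101 genes met the rule, and without any other single array the number was between 43 and 65.

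**Figure D4:**
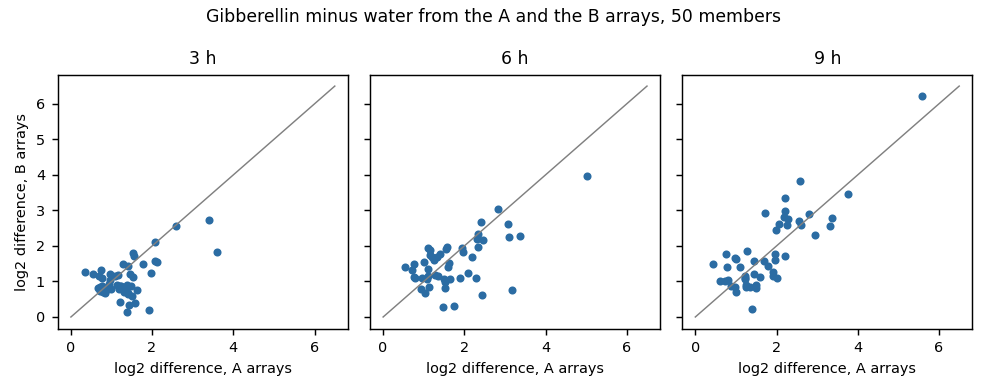
Gibberellin minus water on the log2 scale from the B arrays (vertical) against the A arrays (horizontal) at 3, 6 and 9 h; each point is 1 of the 50 members and the line marks equal values. At 3 h more points lie below the line, 32 of 50, than above it.

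The rule compares treatments at each time and not times within a treatment, and the change from 3 h to 9 h in each treatment was tested with limma over all 15766 probe sets. The arrays of this test are among those that chose the members. It is therefore not independent of the rule, and nothing is read from a members' count or median beside that of all probe sets. In gibberellin 3 members passed and all 3 rose, where 0.488% of all probe sets were called, 0.222% higher and 0.266% lower. AT4G32460, the DUF642 gene, rose by a log2 change of 2.20 ± 0.418 (SE, adjusted p = 0.0485). AT2G22420 rose by 1.58 ± 0.296 (adjusted p = 0.0438) and AT5G56350 by 1 ± 0.175 (adjusted p = 0.0343). AT5G56350 had 155 and 149 in gibberellin at 3 h, 239 and 201 at 6 h, and 314 and 294 at 9 h. Its water arrays were 86.6 and 93.2, 94.0 and 90.3, and 81.0 and 86.1. In these 3 genes both 9 h arrays lay above both 3 h arrays.

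These calls are close to the threshold and depend on the model. With the array letter as a block 13 members rose, though no label says what a letter marks. Leaving out 1 array gave between 0 and 8 member calls, with 0 in 7 of 12 fits: without either water 6 h, water 9 h or gibberellin 9 h array, and without gibberellin 3 h B. Without gibberellin 6 h A or B, AT4G32460, AT2G22420 and AT5G56350 all fell short, with their changes of the same size. AT4G10270 passed there in their place. The most calls came without gibberellin 3 h A. With the signal ceiling as a block 13 members rose, and among the 8 arrays with the high ceiling 8 did. AT4G32460 (adjusted p = 0.0122) and AT2G22420 (adjusted p = 0.0141) were among the latter, and AT5G56350 had an adjusted p of 0.105 there.

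Members short of the threshold had larger changes in some cases. ATLP-1 had the largest, 2.41 ± 0.466 (SE, adjusted p = 0.0518). AT3G15720 had 2.05 ± 0.619 (adjusted p = 0.174), AT4G10270 1.99 ± 0.559 (adjusted p = 0.145) and VTC4 1.25 ± 0.260 (adjusted p = 0.061). AT3G60070 had 0.92 ± 0.191 (adjusted p = 0.0629) and RALFL34 0.96 ± 0.218 (adjusted p = 0.0887). In all, 10 members had a change of 1 or more and none of -1 or less, on arrays that also chose the members. The share of all probe sets with such changes was not counted. Both 9 h arrays lay above both 3 h arrays in 23 of 50 members, where 20.2% of all probe sets did so, and below in 4, where 19.8% did. The median change of the members was 0.32, against 0.00 over all probe sets.

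In water 0 members passed between 3 h and 9 h, and limma called 0% of all probe sets. An unadjusted p under 0.05 was found for 2 members, and for 2.07% of all probe sets. The changes ran from -0.88 to 0.46 with a median of -0.04, against -0.01 over all probe sets. The lowest were those of AOP1 (-0.88 ± 0.421) and AT1G68500 (-0.87 ± 0.416, SE). Both 9 h arrays lay below both 3 h arrays in 13 members, where 14.8% of all probe sets did so, and above in 6, where 12.9% did. In 6 members the 9 h arrays were above the 3 h arrays in gibberellin and below them in water, a pattern of 2.96% of all probe sets, and in 1 the reverse, a pattern of 2.14%. Of the 15 members whose D9 exceeded D3 by 1 or more, the higher level in gibberellin was the larger part of that in 12. In AOP1, AT1G78170 and AT3G50340 the lower level in water was, by values at or near the filter signal of 16. Their mean water signals at 9 h were 15.4, 12.3 and 22.3, and the 9 h arrays of AT3G50340 were 34.9 and 9.68, so the size of that difference is not well measured.

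**Figure D5:**
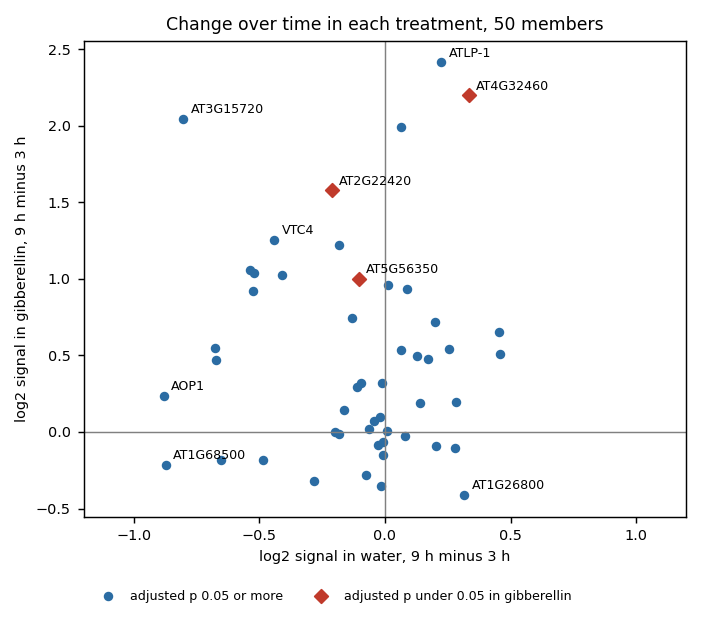
Log2 signal at 9 h minus 3 h in gibberellin (vertical) against the same change in water (horizontal) for the 50 members. Red diamonds are the 3 members with an adjusted p under 0.05 in gibberellin; the vertical range reaches 2.41 (ATLP-1), while water stays between -0.88 and 0.46.

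The pathway that reads gibberellin was described by a list of 24 genes of perception, signalling and response. Of these, 7 have a probe set of their own in the annotation used here and 6 passed the brightness filter. No value is given for the rest of the list, which may be measured by probe sets that name no single gene here. None of the 6 had a D3, D6 or D9 of 0.7 or more, where 6.02%, 9.26% and 13.1% of single-gene probe sets did, and the medians of D were -0.27, -0.61 and -1.10. The receptor gene GID1A had D of -0.69, -1.33 and -2.03. It fell in gibberellin from 3 h to 9 h (log2 change -1.30, limma adjusted p = 0.0274). GID1A was the only 1 of the 6 called lower, where 0.266% of all probe sets were. Called higher were 0 of the 6, where 0.222% of all probe sets were, and 6 genes are too few to fall below that share.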

How the data were processed

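Total RNA from seeds was hybridised as biotin-labelled targets to 12 one-colour Affymetrix arrays, 2 for each of 6 groups. The submitters' processing notes name MAS5, with no version given in the sources used here, and the authors deposited its linear signal as an intensity for each probe set. They were taken to log2 as deposited, with no offset. After 64 control probe sets were left out, 15766 of 22746 passed a filter (at least 2 arrays above the 40th percentile, a signal of 16.0), among them all 50 members; the members had to pass it, since their gibberellin arrays are bright by the rule. Gene names came from the platform annotation: of the 22746 probe sets, 13513 name 1 gene, 503 several and the rest none. Of the 13513, 13436 matched the RefSeq table of TAIR10.1, used for names and gene order only.

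Time changes were tested with limma 3.58.1 in R 4.3.3: 6 group means, all 12 arrays, an intensity trend, 6 residual degrees of freedom, two-sided, Benjamini-Hochberg over 15766 probe sets, threshold 0.05. With 2 arrays a group, p-values measure only the spread between these arrays. On simulated data, 66.5% of 200 changes of 2 on the log2 scale among 15766 probe sets were recovered in gibberellin at 9 h against 3 h, with 1 false call, and 8% of changes of 1, with 0. The simulated noise was independent between arrays, around 1 mean for each probe set, with no effect of letter or signal ceiling. The rates on the real arrays may therefore differ.

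The members and lists were chosen with earlier results of these data known. All members are named. Values of every array are given for the 6 with the highest mean D, the 3 highest by D3, the 3 highest and 3 lowest by D9 minus D3, those that passed a time test, and others picked for their known role. Family lists by words in gene names were set after the annotation was seen. Planned promoter motifs were not analysed here, since no sequence was used.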

Additional observations from a re-analysis of the deposited data

Results flagged for a closer look

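In 7 members both 9 h arrays lay above both 3 h arrays in 1 treatment and below them in the other. The difference between the treatments was not tested, because it is D9 minus D3, which is built from the values that chose the genes. In 6 of them the level was higher at 9 h in gibberellin and lower in water, as in 2.96% of all tested probe sets. The difference was 1.70 on the log2 scale for VTC4, 1.60 for AT5G13400, 1.56 for AT3G52470, 1.44 for AT3G60070, 1.44 for AT1G28680 and 1.1 for AT5G56350. In AT1G26800 it was the other way, as in 2.14% of all tested probe sets, with a difference of -0.73. The same arrays chose the members, so nothing is read from these counts. No member passed the time test in water. For AT5G56350 the change in water was only -0.10 ± 0.175 (SE), with 86.6 and 93.2 at 3 h and 81.0 and 86.1 at 9 h. For AT5G13400 the signals were 103 and 65.3 at 3 h and 183 and 160 at 9 h in gibberellin, and 39.1 and 40.8 and then 31.0 and 24.4 in water. AT1G28680 had 73.2 and 56.0 and then 101 and 169 in gibberellin, and 32.0 and 32.3 and then 21.0 and 27.9 in water. Groups of 2 arrays are too small for a check of single arrays that stand apart.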

How the results depend on the processing

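The number of members called higher in gibberellin at 9 h against 3 h was 3, and it moved to 5 with median centring, 6 with log2(signal + 16), 13 with the replicate block (the array letter), 13 with a block for the signal ceiling, 8 on the high-ceiling arrays only, and 0 both without an intensity trend and with the 4 arrays of the 2 groups alone. Leaving out 1 array gave 0 to 8. In none of the 22 alternatives was a member called lower in gibberellin, or called in either direction in water. The causes were not tested. Fits on fewer arrays also have fewer degrees of freedom. The A minus B differences of the groups correlated positively, at between 0.08 and 0.28, above 0.1 in 14 of 15 pairs of groups. The letters were not taken as pairs in the main fit, because no label says what a letter marks. Whether the arrays of a letter share a batch was not tested. The number of members by the rule was 82 with a threshold of 0.5, 22 with 1 and 31 with a minimum signal of 100, and leaving out 1 array gave 43 to 101. With quantile normalization 54 met the rule and with median centring 55, the 50 members among them. With most single arrays left out, some of the 50 no longer met it. With log2(signal + 16) the median D3, D6 and D9 were 0.88, 1.24 and 1.26, and with quantile normalization 1.03, 1.47 and 1.53. The planned motif shares were not run, since no promoter sequence was used. In the simulated data the fit without a block recovered few changes of 1 on the log2 scale.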
